A study of Mus musculus with 142 samples.

Results

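The genes described here are 34 genes of the myelin sheath and of the mature oligodendrocyte, the glial cell that wraps axons in myelin. They were taken as a named list and grouped by role into 6 compact membrane and tight junction proteins, 10 adaxonal, outer and nodal surface proteins, 7 cytoskeletal and signalling genes, 8 genes of metabolism, transport and chaperone function, and 3 genes of secreted proteases or a cytokine. All 34 were among the 54127 genes with a matched transcript, and all 34 passed the filter on low counts that left 19769 genes for testing. Every library gave an estimated read count and a TPM (transcript abundance scaled by transcript length and library size) for each transcript, and both were summed per gene.

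Primary oligodendrocyte precursor cells (OPCs) were immunopanned with an antibody to PDGFRa from the brainstem or the dorsal telencephalon of mouse pups of an FVB background at P5 to P7. K27M pups carried a conditional H3f3a knock-in allele that encodes histone H3.3 with lysine replaced by methionine and needs Cre to be active, with Cre driven by the human GFAP promoter, which acts in neural progenitors and in the glia that descend from them. Controls were littermates without the active mutation, and tissue of litters was pooled by region and genotype. Day 0 cells grew in proliferation medium with PDGF and neurotrophin-3. Cells of days 1, 2 and 5 had that medium replaced by differentiation medium with thyroid hormone, and both media held forskolin and CNTF. Region, genotype and day give 16 groups, each with 3 cultures (38, 41 and 42) of about 3 wells a day: 9 libraries a group, or 8 in brainstem K27M at day 2 and in brainstem Control at day 1.

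Myelin is a stack of oligodendrocyte membrane held tight by small basic and tetraspan proteins, with adhesion proteins on the surfaces that face the axon and the outside. Oligodendrocytes switch on many of these genes after they leave the cell cycle, under Sox10 and Myrf, and cells in culture make myelin membrane without axons. Many of the genes are commonly used to score maturation because precursors hold little of their mRNA. This does not hold for all of them: Anln, Cnp and Cldn11 were already present at day 0 here.

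Wells of 1 culture share its cells and are not independent replicates. The test over wells takes them as replicates, so its standard errors and p-values can be too small for differences between cultures. Calls are over wells unless a sentence names culture sums, in which the wells of a culture and day were added and n is the 3 cultures. Brainstem and telencephalon libraries came from different batches by the labels, so region and batch cannot be told apart. Passage ran from 1 to 8 among the cultures: 1 to 4 in telencephalon, 1 to 6 in brainstem K27M and 3 to 8 in brainstem Control. It thus differed between the regions and, in brainstem, between the genotypes. Passage also differed between days of a culture, and at times between its wells of a day. Brainstem Control culture 42 was at passage 3 or 8 at day 0, 6 at day 1, 8 at day 2 and 7 at day 5. Passage can therefore enter the changes between days and the onset days. Brainstem culture 41 was at passage 1 or 2 in K27M and at 4 or 5 in Control. Passage was a covariate in an alternative. In bulk RNA, fewer cells of a type and less RNA per cell cannot be told apart. Depth ran from 26.6 M to 455 M read pairs around a median of 46.9 M, and the deepest, of brainstem Control at day 5, was left out in an alternative. The cell type markers fit the panning in part: 10 OPC markers summed to 274 to 402 TPM (median 350.1) in brainstem K27M at day 0 and 324 to 594 TPM (median 449) in brainstem Control, with 359.6 to 468 TPM (median 427) in telencephalon K27M and 344 to 508 TPM (median 437) in telencephalon Control. At under 1 TPM in every group were 7 of 8 microglia markers, 9 of 10 vascular and fibroblast markers, 5 of 5 choroid plexus markers and 4 of 5 Schwann cell markers. None of the 11 astrocyte markers was that low in every group, and their levels are given beside the results.

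How did the genes change over 5 days of differentiation? The summed level of the 34 genes climbed on each day in every line. In brainstem K27M the sum at days 0, 1, 2 and 5 averaged 298 ± 70.7, 988 ± 710.1, 2671 ± 2003 and 7967 ± 1620.0 TPM (SD over 3 cultures). In brainstem Control it averaged 317 ± 125, 554 ± 235, 3028 ± 1499 and 9189 ± 2540.3 TPM. Telencephalon K27M averaged 239.8 ± 46.2, 711 ± 76.3, 2840.2 ± 448 and 10368 ± 2568 TPM. In telencephalon Control the averages were 399.6 ± 203, 1473 ± 1069.6, 4026 ± 295 and 9481 ± 2042 TPM. The libraries of day 5 lay above those of day 0 in all 4 lines with no overlap. At day 1 cultures 38, 41 and 42 held 811, 1769.9 and 383 TPM in brainstem K27M, against 308, 579 and 776 TPM in brainstem Control. The same cultures at day 1 held 784, 717 and 632 TPM in telencephalon K27M and 638, 1104 and 2679 TPM in telencephalon Control. Culture 41 was thus the most advanced in brainstem K27M and culture 42 in telencephalon Control, while cultures 38, 41 and 42 of telencephalon K27M lay close together.

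**Figure D1:**
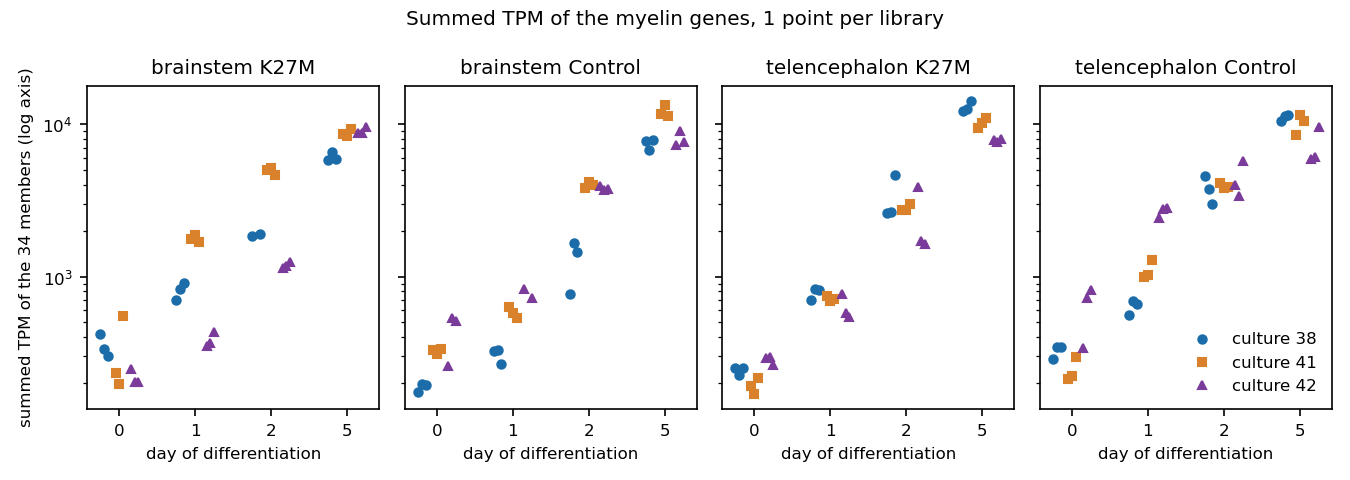
Summed TPM of the 34 genes in each library (log axis) by day of differentiation, in brainstem and telencephalon K27M and Control cells, with a colour for each of the 3 cultures. At day 1 the libraries spread from 349 to 1863 TPM in brainstem K27M, and at day 5 no library of any line lay under 5832 TPM.

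A gene was called at least 2-fold higher at an adjusted p under 0.05 (edgeR's quasi-likelihood test, Benjamini-Hochberg adjustment over all genes) and a log2 fold change of at least 1. In brainstem K27M this held for 12, 22 and 33 of the 34 genes at days 1, 2 and 5 against day 0, where 5.63%, 11.5% and 19.3% of all genes passed. Brainstem Control gave 7, 27 and 33 genes, against 5.47%, 12.5% and 21.8% of all genes. In telencephalon K27M 14, 23 and 33 genes passed, with 8.1%, 13.4% and 22.8% of all genes. In telencephalon Control 16, 25 and 33 genes passed, with 8.24%, 14.8% and 22.7% of all genes. On counts summed per culture the day 5 count was 33 in each line, the day 1 counts were 9, 6, 13 and 15 in the same order, and the day 2 counts were 19, 26, 20 and 23. The median log2 change of the 34 genes at day 5 was 4.98, 5.93, 5.96 and 5.63, beside medians of 0.06, 0.07, 0.08 and 0.09 over all genes. In telencephalon K27M the median is the same with Klk6, which had no count at day 0 there, set at its bound. The gene that did not pass in any line was Anln. Fold changes come from counts scaled by TMM (a library scaling that trims extreme genes), so they can differ from ratios of TPM.

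Among the 6 compact membrane proteins, 4, 2, 4 and 4 had risen at least 2-fold at day 1 in brainstem K27M, brainstem Control, telencephalon K27M and telencephalon Control (3, 2, 4 and 4 on culture sums), and all 6 at day 5 on either count. Mbp encodes myelin basic protein, which joins the inner faces of the membrane. Mbp medians at days 0, 1, 2 and 5 were 12.7, 153, 778 and 3539 TPM in brainstem K27M and 32.4, 38.2, 1416 and 2897 TPM in brainstem Control. The telencephalon medians of Mbp were 4.24, 70.3, 1086 and 4066 TPM in K27M and 3.37, 114, 1566 and 3829 TPM in Control. The day 5 libraries of Mbp, at 2237 to 5503 TPM over both brainstem genotypes, lay far above their day 0 libraries, which reached 166 TPM at most. Mbp rose by 6.18 ± 0.65 (log2, standard error) in brainstem K27M, 7.18 ± 0.68 in brainstem Control, 9.75 ± 0.76 in telencephalon K27M and 7.28 ± 0.70 in telencephalon Control at day 5 (adjusted p at most 1.3e-15). It had the highest TPM of the 34 genes at day 5 in each line.

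Mobp, a second basic protein of the sheath, and Mal, a raft-associated proteolipid that sorts myelin membrane, came later. Mobp medians at days 0, 1, 2 and 5 were 0.342, 0.469, 21.0 and 868 TPM in brainstem K27M and 0.785, 0.128, 21.8 and 1032 TPM in brainstem Control. In telencephalon the Mobp medians were 0.103, 0.113, 32.2 and 1051 TPM in K27M and 0.110, 0.313, 31.0 and 1219 TPM in Control. At day 1 Mobp had not yet risen in any line. It fell over wells in brainstem K27M (-2.04, and -0.69 without culture 38) and brainstem Control (-3.29, and -1.63 without culture 42), and neither call held on culture sums. Mal did not exceed 3.48 TPM in any library through day 2 and stood at 160.3 to 232 TPM (median 199) in brainstem K27M at day 5 and 64.7 to 219 TPM (median 182) in brainstem Control. Telencephalon Mal at day 5 was 209 to 483 TPM (median 230.3) in K27M and 114 to 350.2 TPM (median 232) in Control. Its day 5 change was 9.79 ± 0.55 and 12.37 ± 0.63 in brainstem K27M and Control, and 12.73 ± 0.63 and 10.66 ± 0.57 in telencephalon K27M and Control.

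Cldn11 (claudin-11, the tight junction strand protein of myelin), Pllp (plasmolipin, a tetraspan proteolipid) and Tspan2 (a tetraspanin) were present before differentiation and rose early. Cldn11 medians in brainstem K27M at days 0, 1, 2 and 5 were 72.9, 175, 297 and 754 TPM, against 73.7, 147, 638 and 761 TPM in brainstem Control. Pllp medians were 15.6, 36.8, 60.2 and 141 TPM in brainstem K27M and 36.4, 68.8, 126 and 187 TPM in brainstem Control. In telencephalon Pllp began lower, with medians of 5.48, 23.9, 38.5 and 145 TPM in K27M and 13.8, 43.0, 68.2 and 166 TPM in Control. Tspan2 reached medians of 81.3, 117, 122 and 174 TPM at day 5 in brainstem K27M, brainstem Control, telencephalon K27M and telencephalon Control. The day 5 rise of Pllp was 3.31 ± 0.17 in brainstem K27M and 5.45 ± 0.18 in telencephalon K27M, a difference that is tested in the comparison of the regions.

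Of the 10 surface proteins, 6, 5, 8 and 7 had risen at least 2-fold at day 1 in brainstem K27M, brainstem Control, telencephalon K27M and telencephalon Control (5, 4, 7 and 7 on culture sums), and all 10 at day 5 on either count. Mag (the sialic acid-binding adhesion protein next to the axon), Mog (on the outermost layer) and Cnp (the cyclic nucleotide phosphodiesterase of uncompacted myelin) rose in every line. Cnp was the most even of them, with medians at days 0, 1, 2 and 5 of 60.9, 293, 393 and 642 TPM in brainstem K27M and 62.4, 184, 841 and 772 TPM in brainstem Control. Its telencephalon medians were 79.0, 319.8, 587 and 736 TPM in K27M and 138, 477, 832 and 741 TPM in Control, where the mean over cultures peaked at day 2. Mag medians were 2.49, 59.4, 187 and 1006 TPM in brainstem K27M and 7.56, 22.2, 354 and 1023 TPM in brainstem Control. In telencephalon Mag medians were 0.569, 17.5, 277 and 1266 TPM in K27M and 0.627, 56.6, 439 and 1320.1 TPM in Control. Telencephalon Control culture 42 stood apart at day 0, with a mean of 49.2 TPM of Mag against 0.803 and 0.140 TPM in cultures 38 and 41. Mog medians at day 5 were 197 TPM in brainstem K27M, 296 TPM in brainstem Control, 232 TPM in telencephalon K27M and 352 TPM in telencephalon Control. No day 0 library held more than 5.85 TPM of Mog.

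Opalin, a sialylated membrane glycoprotein of oligodendrocytes, Tmem88b, a transmembrane protein, and Ninj2, an adhesion protein of the ninjurin family, also rose by day 1 in all 4 lines. Opalin at days 0, 1, 2 and 5 had medians of 0.421, 7.63, 8.33 and 13.6 TPM in brainstem K27M and 0.396, 2.22, 12.5 and 37.8 TPM in brainstem Control. Telencephalon Opalin medians were 0.466, 1.27, 3.01 and 11.5 TPM in K27M and 0.295, 3.67, 3.87 and 45.7 TPM in Control. By medians Opalin was higher in K27M than in Control in brainstem at day 1, and lower in K27M in both regions at days 2 and 5. Tmem88b rose at day 1 by 2.98 ± 0.34, 2.66 ± 0.34, 4.38 ± 0.37 and 3.89 ± 0.35 in brainstem K27M, brainstem Control, telencephalon K27M and telencephalon Control. Ninj2 rose by 2.07, 1.85, 2.41 and 2.21 in the same order and reached no more than 10.4 TPM in any library of day 5.

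Ermn (ermin, a cytoskeletal protein of late oligodendrocytes), Hapln2 (a hyaluronan link protein at nodes of Ranvier), Ceacam20 (an adhesion protein of the immunoglobulin superfamily) and Evi2a (a small membrane protein) were almost absent at day 0. Ermn medians at days 0, 1, 2 and 5 were 0.0198, 0.0106, 0.322 and 36.8 TPM in brainstem K27M and 0.0204, 0.00476, 0.117 and 39.8 TPM in brainstem Control. It rose by day 5 by 8.58 ± 0.67 in brainstem K27M, 11.07 ± 0.78 in brainstem Control, 10.75 ± 0.76 in telencephalon K27M and 8.20 ± 0.67 in telencephalon Control. Hapln2 medians at day 5 were 5.20, 2.96, 4.89 and 2.53 TPM in these 4 lines. Ceacam20 and Evi2a stayed low as well, and no library of day 5 exceeded 5.22 TPM of Ceacam20 or 5.75 TPM of Evi2a. Both rose in every line, Ceacam20 by 6.31 ± 0.38 in brainstem K27M and 10.28 ± 0.38 in brainstem Control, against a day 0 level of at most 0.0212 TPM in any library.

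The cytoskeletal and signalling genes included Gsn and Plekhh1, which were at least 2-fold higher only at day 5, and Anln, which was not called higher on any day. Anln encodes anillin, an actin- and septin-binding protein that works in cytokinesis and also lies along mature myelin. It fell in every line at day 2, with log2 changes of -1.53, -1.57, -1.62 and -2.43 in brainstem K27M, brainstem Control, telencephalon K27M and telencephalon Control (adjusted p on culture sums at most 9.3e-04). Its medians at days 0, 1, 2 and 5 were 14.9, 7.21, 4.03 and 9.30 TPM in brainstem K27M and 13.4, 5.12, 2.74 and 4.97 TPM in brainstem Control. Telencephalon Anln medians were 13.0, 5.43, 3.36 and 8.64 TPM in K27M and 12.9, 4.40, 1.95 and 3.70 TPM in Control. At day 5 against day 0 Anln changed by -0.26 ± 0.19 in brainstem K27M (adjusted p = 0.22) and 0.01 ± 0.19 in telencephalon K27M (adjusted p = 0.98). At day 5 it was still lower in brainstem Control (-0.75 ± 0.19, adjusted p = 2.5e-04, 0.058 on culture sums) and telencephalon Control (-0.85 ± 0.19, adjusted p = 3.3e-05, 0.038 on culture sums).

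Gsn (gelsolin, which severs actin filaments), Plekhh1 (a protein with pleckstrin homology domains), Ndrg1 (a cytoplasmic protein whose human gene is mutated in a form of Charcot-Marie-Tooth disease) and Ppp1r14a (an inhibitor of myosin phosphatase) stood at no more than 29.5% of their day 5 level at day 2 in any line. That highest share was of Gsn in brainstem Control, which had come down from 42.6% at day 0 and 36.1% at day 1. Ndrg1 medians at days 0, 1, 2 and 5 were 0.0599, 0.0390, 0.0877 and 32.7 TPM in brainstem K27M and 0.0334, 0.0199, 0.0337 and 30.1 TPM in brainstem Control. Plekhh1 medians at day 5 were 22.2, 21.2, 31.1 and 32.6 TPM in brainstem K27M, brainstem Control, telencephalon K27M and telencephalon Control, after 1.21, 0.999, 1.48 and 0.909 TPM at day 2. Gpr37 (an orphan receptor that restrains oligodendrocyte differentiation in mice) and Efhd1 (a mitochondrial calcium-binding protein) began earlier. Ppp1r14a and Gsn are taken up with the genotypes and the regions, where they differed. Gpr37 rose at day 2 by 3.27, 3.10, 3.96 and 3.65 in these lines, and Efhd1 by 1.01, 1.16, 1.65 and 1.66.

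All 8 genes of metabolism, transport and chaperone function had risen at day 5, and 0, 0, 1 and 2 of them at least 2-fold at day 1, on wells and on culture sums alike. Aspa (aspartoacylase, which releases acetate from N-acetylaspartate) had medians at days 0, 1, 2 and 5 of 0.0231, 0.0112, 0.0492 and 8.66 TPM in brainstem K27M and 0.00766, 0, 0.0268 and 23.4 TPM in brainstem Control. Car2 (carbonic anhydrase 2) fell at day 1 before it rose, with medians of 4.40, 0.871, 0.717 and 162 TPM in brainstem K27M and 2.31, 0.416, 0.502 and 96.2 TPM in brainstem Control. Its telencephalon medians were 0.962, 0.408, 0.570 and 252 TPM in K27M and 2.20, 0.582, 1.96 and 121 TPM in Control, and the day 1 fall passed the test in brainstem K27M (-1.95), brainstem Control (adjusted p = 1.3e-05), telencephalon K27M (-1.45) and telencephalon Control (-1.74). Galnt6, which starts O-linked glycosylation, was lower at day 1 in the same lines too (-1.63, -1.30, -3.07 and -2.43), in brainstem over wells only. In brainstem K27M its day 1 value was -2.75 without culture 42, and in brainstem Control -2.48 without culture 38 and -0.74 without culture 41. At day 5 it was higher by 2.99, 3.93, 4.81 and 5.17.

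Trf (transferrin, the iron carrier), Apod (apolipoprotein D), Qdpr (dihydropteridine reductase), Gamt (the last enzyme of creatine synthesis) and Cryab (a small heat shock chaperone) completed that group. Trf medians at days 0, 1, 2 and 5 were 5.94, 8.39, 20.3 and 78.6 TPM in brainstem K27M and 1.94, 1.28, 9.10 and 67.9 TPM in brainstem Control. Qdpr started highest of the 5, at a median of 12.3 TPM in brainstem K27M and 13.3 TPM in brainstem Control at day 0, and stood at 71.3 and 192 TPM at day 5. Apod rose at day 5 by 6.29 ± 0.25, 6.78 ± 0.26, 7.29 ± 0.27 and 6.88 ± 0.26 in brainstem K27M, brainstem Control, telencephalon K27M and telencephalon Control. Cryab rose by 5.79 ± 0.38, 7.51 ± 0.42, 8.26 ± 0.44 and 7.41 ± 0.41 in these lines, and Gamt by 4.15 ± 0.23, 5.01 ± 0.24, 4.85 ± 0.24 and 3.79 ± 0.23.

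Of the secreted products, Adamts4 (a metalloprotease that cleaves proteoglycans) was early, Klk6 (a serine protease) late, and Il33 (a nuclear cytokine released on damage) fell before it rose. Adamts4 medians at days 0, 1, 2 and 5 were 2.27, 8.60, 25.3 and 67.0 TPM in brainstem K27M and 4.35, 6.15, 66.4 and 74.2 TPM in brainstem Control. In telencephalon they were 2.50, 6.44, 47.0 and 76.8 TPM in K27M and 3.23, 12.1, 63.4 and 55.4 TPM in Control, with the Control mean highest at day 2. Klk6 had no count in any of the 9 telencephalon K27M libraries of day 0, so only a bound can be given: it was at least 10832-fold higher at day 5 than 3 counts over that group allow. Its day 5 libraries held 20.8 to 64.2 TPM (median 32.5) in brainstem K27M, 9.09 to 24.2 TPM (median 10.8) in brainstem Control, 31.4 to 78.0 TPM (median 35.0) in telencephalon K27M and 7.81 to 30.3 TPM (median 16.5) in telencephalon Control. Il33 medians at days 0, 1, 2 and 5 were 0.882, 0.410, 0.202 and 7.08 TPM in brainstem K27M and 0.441, 0.143, 0.0471 and 4.19 TPM in brainstem Control. Telencephalon medians of Il33 were 0.264, 0.0245, 0.0205 and 5.56 TPM in K27M and 0.164, 0.0243, 0.0331 and 2.14 TPM in Control, so the lowest median was that of day 1 or 2 in each line.

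**Figure D2:**
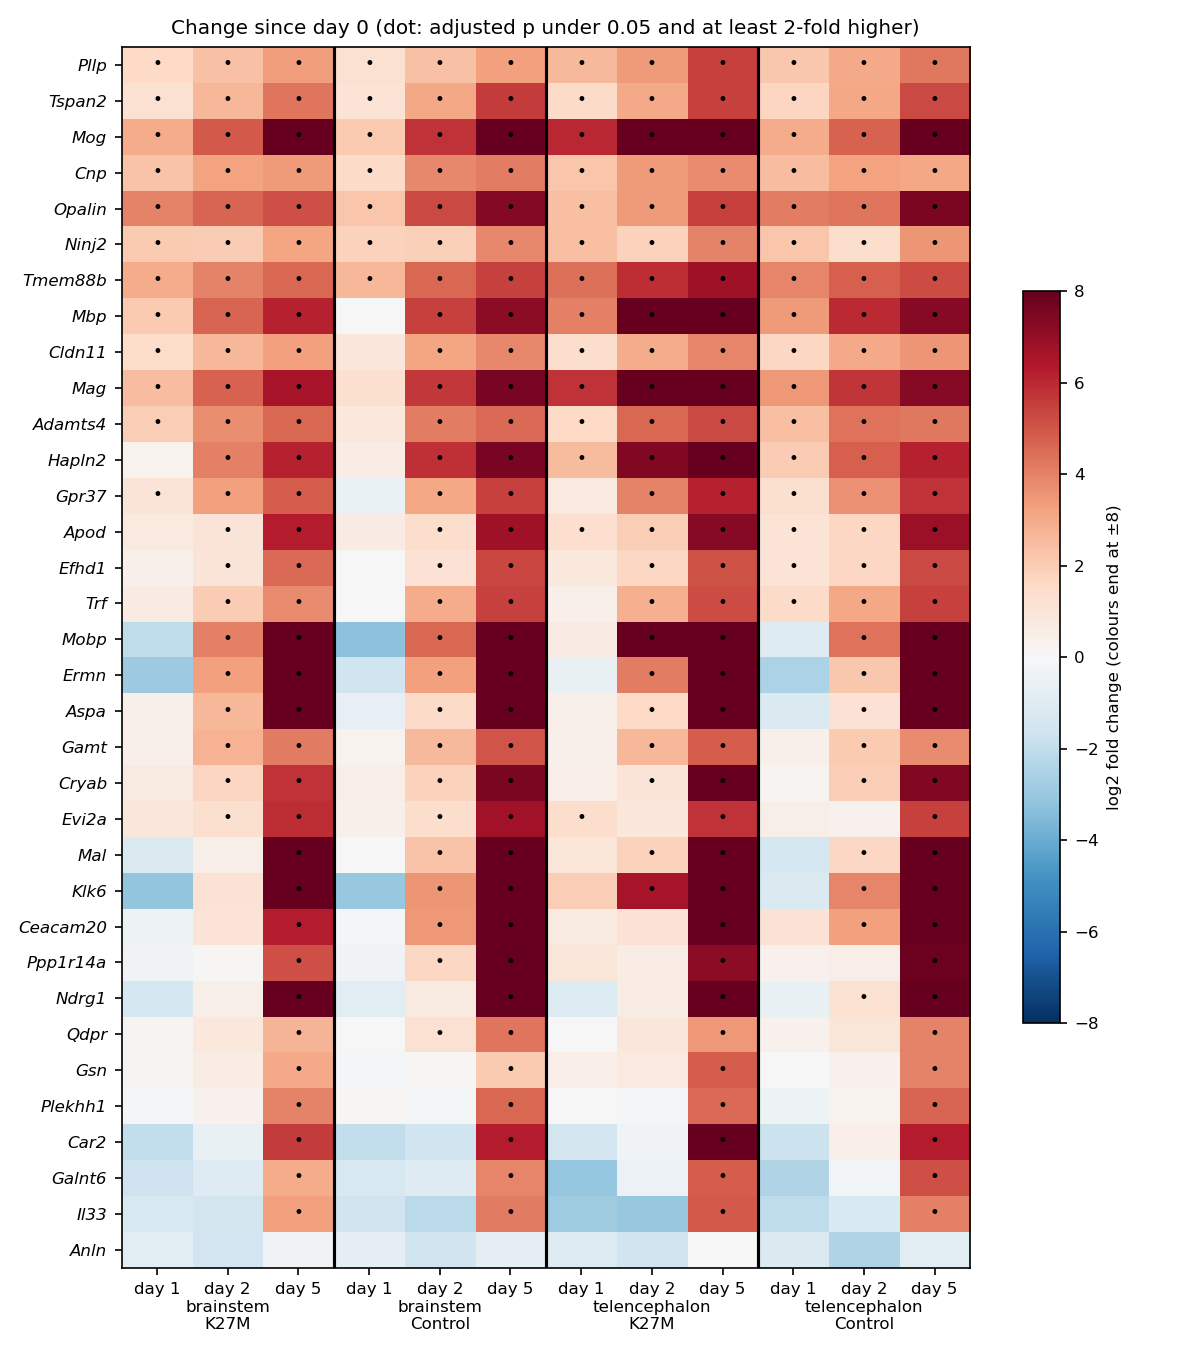
Log2 fold change of each of the 34 genes at days 1, 2 and 5 against day 0 (edgeR) in brainstem and telencephalon K27M and Control cells, as colours that end at a log2 of 8. A dot marks an adjusted p under 0.05 with at least a 2-fold rise, and genes are ordered from the top by the mean over lines of the first day called. At day 5 all genes but Anln were higher in each line. The fitted value of Klk6 in telencephalon K27M rests on a group with no count and is no measure of size.

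The onset day, the first day at which a gene was at least 2-fold higher, was the same in all 4 lines for 18 of the 34 genes. Onset was day 1 in each line for 7 genes (Pllp, Tspan2, Mog, Cnp, Opalin, Ninj2 and Tmem88b), day 2 for 5 (Mobp, Ermn, Aspa, Gamt and Cryab) and day 5 for 5 (Gsn, Plekhh1, Car2, Galnt6 and Il33), and Anln had none. Brainstem K27M had 12, 10 and 11 genes with onset at days 1, 2 and 5, brainstem Control 7, 20 and 6, telencephalon K27M 14, 10 and 9, and telencephalon Control 16, 9 and 8. Of the 136 pairs of a gene and a line, 121 kept their onset day on culture sums, 15 had a later one and 0 an earlier one, which left 17 genes with the same onset in all 4 lines. The onset counts for days 1, 2 and 5 on culture sums were 9, 10 and 14 in brainstem K27M, 6, 20 and 7 in brainstem Control, 13, 8 and 12 in telencephalon K27M and 15, 8 and 10 in telencephalon Control. Of the genes with a shared onset, Aspa moved to day 5 on culture sums in every line but brainstem K27M, Cryab to day 5 in telencephalon K27M and Mog to day 2 in brainstem Control.

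The other 16 genes differed between lines. Cldn11 and Adamts4 began at day 2 in brainstem Control and at day 1 in the other lines, on wells and on culture sums. Mbp and Mag did so on wells, but on culture sums they began at day 2 in brainstem K27M too. Hapln2 and Apod began at day 2 in both brainstem lines and at day 1 in both telencephalon lines, and on culture sums Hapln2 moved to day 2 in telencephalon K27M and Apod to day 5 in brainstem K27M. Gpr37 began at day 1 in brainstem K27M and telencephalon Control and at day 2 in the other lines, a difference that was gone on culture sums, where it began at day 2 in all 4. Trf and Efhd1 began at day 1 in telencephalon Control and day 2 in the others, with Efhd1 at day 5 in brainstem K27M on culture sums. Mal and Klk6 began at day 5 in brainstem K27M and at day 2 in the others (on culture sums Mal at day 5 in telencephalon K27M too). Ceacam20 began at day 2 in both Control lines and day 5 in both K27M lines, and Ppp1r14a and Qdpr at day 2 in brainstem Control and at day 5 elsewhere, on either count. At day 2 Ceacam20 stood at no more than 1.78% of its day 5 level in any line, so its onset rests on very low counts. Ndrg1 began at day 2 in telencephalon Control and day 5 elsewhere, and at day 5 in all 4 lines on culture sums. Evi2a began at day 2 in both brainstem lines, at day 1 in telencephalon K27M and at day 5 in telencephalon Control. Its day 2 call in brainstem K27M (1.30) rested on culture 41, without which the change was -0.09 (adjusted p = 0.94), and on culture sums it began there at day 5. Brainstem Control was later than telencephalon Control for 10 genes and earlier for 3 (9 and 3 on culture sums). Brainstem K27M was later than brainstem Control for 5 and earlier for 5, but later for 8 and earlier for 4 on culture sums. A gene near the 2-fold limit can change its onset day with a small change in value: Efhd1 in brainstem K27M changed by 1.01 at day 2 and Apod by 1.01, both just inside it.

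The share of the day 5 level that was reached at day 2 was taken from culture means of TPM. Cnp stood at 80.4% ± 30.5, 88.0% ± 31.5, 85.9% ± 16.7 and 118% ± 15.1 of its day 5 level in brainstem K27M, brainstem Control, telencephalon K27M and telencephalon Control (SD over 3 cultures). Cldn11 stood at 59.8% ± 28.4, 64.5% ± 25.0, 55.0% ± 4.21 and 80.3% ± 15.5, and Adamts4 at 53.4% ± 34.2, 74.1% ± 29.3, 63.5% ± 1.07 and 117% ± 3.16. In telencephalon Control 0 of 3 cultures had their highest level of Cnp or of Adamts4 at day 5. Opalin stood at 63.9%, 24.3%, 25.0% and 11.8%, with SDs from 2.27 in telencephalon Control to 27.8 in brainstem K27M. Mbp stood at 37.3%, 32.0%, 29.5% and 50.0%, with SDs from 0.949 in telencephalon K27M to 30.6 in brainstem K27M. Mobp, the other basic protein gene, stood at 6.25% ± 7.82, 2.18% ± 1.93, 2.84% ± 0.345 and 7.37% ± 8.12, with an SD above the mean in brainstem K27M and in telencephalon Control. The cultures thus differed widely at day 2 in brainstem. Mal had reached at most 0.361%, Aspa 0.684%, Klk6 0.868% and Ndrg1 0.470% in any line. The median share over the 34 genes at days 0, 1 and 2 was 3.98%, 6.25% and 13.4% in brainstem K27M and 2.81%, 3.01% and 11.6% in brainstem Control. In telencephalon it was 2.42%, 2.61% and 8.94% in K27M and 3.23%, 6.10% and 9.78% in Control.

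Promoter sequence was looked up for the genes because many of them moved together. RefSeq windows of 250 bases upstream of the start (GRCm38.p6) matched 27 of the 34 genes with 35 windows. The letters CTGGNAC were taken as a loose form of the core bound by the myelin factor Myrf. Any base was allowed at N, so a match called a Myrf core here need not fit that factor. They were found on either strand in 12 of the 35 windows (34.3%), against 16.1% of all 32851 windows. The letters ACAANG, a Sox core, were in 17 of 35 (48.6%), against 36.3% of all windows. A match is no evidence of binding, and both shares are descriptions of a list whose windows partly overlap. Windows of Cnp (onset at day 1 in every line), Mag (onset at day 1 or 2) and Mobp (onset at day 2 in every line) are printed 5′ to 3′ on the gene's strand, with matches to either core in capitals. The Cnp window is chr11:100574689-100574938 (plus strand), the printed Mag window chr7:30914864-30915113 (minus strand) and the Mobp window chr9:120149492-120149741 (plus strand). Mag had other windows, which are not printed.
Cnp: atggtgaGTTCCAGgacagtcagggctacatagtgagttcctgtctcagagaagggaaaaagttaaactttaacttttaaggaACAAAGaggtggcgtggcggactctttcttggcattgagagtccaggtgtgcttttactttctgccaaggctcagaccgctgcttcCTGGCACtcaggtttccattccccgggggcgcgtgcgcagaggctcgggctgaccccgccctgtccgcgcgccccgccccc
Mag: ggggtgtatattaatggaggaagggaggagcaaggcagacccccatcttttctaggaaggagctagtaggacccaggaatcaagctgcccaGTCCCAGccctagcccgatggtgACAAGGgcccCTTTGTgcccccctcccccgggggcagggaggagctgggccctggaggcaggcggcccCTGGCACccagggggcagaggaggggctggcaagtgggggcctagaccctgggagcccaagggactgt
Mobp: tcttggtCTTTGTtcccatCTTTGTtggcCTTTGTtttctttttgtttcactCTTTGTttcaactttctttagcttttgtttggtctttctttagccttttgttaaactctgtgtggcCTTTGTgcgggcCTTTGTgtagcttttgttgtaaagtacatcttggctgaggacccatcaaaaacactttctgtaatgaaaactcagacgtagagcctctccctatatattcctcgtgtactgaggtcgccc
The Mobp window held 6 Sox cores and 0 Myrf cores, the printed Mag window 2 of each, and the Cnp window 2 Myrf cores and 1 Sox core. A Mag window further downstream (chr7:30914322-30914571) held 0 Myrf cores and 1 Sox core. It lies next to the start of the Mag transcript of 627 codons (30914308) and to that of a transcript of 582 codons (30914327). The window thus does not set these transcripts apart. A Mag window at chr7:30914923-30915172, which overlaps the printed window, held 2 of each.

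Were the same transcripts used as the genes rose? Of 160 annotated transcripts of the 34 genes, 54 held at least 20% of their gene's TPM in some group, and 13 genes had 2 or more such transcripts. For Hapln2 the only such transcript was a retained-intron model of 0 codons, so the Hapln2 values include a model that encodes no protein. The share of a transcript is an estimate, since reads shared by several models are divided statistically. Gsn was one of the 13. Its transcript of 780 codons (chromosome 2, start 35282380, GRCm38) held 42.3%, 59.9% and 49.9% of Gsn TPM at day 5 in brainstem K27M cultures 38, 41 and 42. In brainstem Control it held 45.2%, 44.0% and 9.09%, and culture 42 stood far below the other 2. In telencephalon it held 75.0%, 80.0% and 77.2% in K27M and 77.7%, 78.1% and 74.2% in Control. The mean over cultures was at most 5.65% in any line on days 0, 1 and 2.

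A transcript of 731 codons that starts 26000 bases upstream (start 35256380) held most of Gsn before day 5, with 73.5%, 73.1%, 76.0% and 73.4% at day 0 in brainstem K27M, brainstem Control, telencephalon K27M and telencephalon Control. In TPM it stood at 42.8, 35.6, 37.9 and 27.9 at day 5, against 17.3, 27.1, 14.8 and 18.6 at day 0 in the same order. The longer form stood at 86.1, 38.0, 289 and 201 TPM at day 5, so most of the rise of Gsn, and most of its gap between regions, lay in that form. The bases before each start are shown because the forms differ in it: chr2:35282130-35282379 for the longer form and chr2:35256109-35256358 for the upstream start (plus strand, GRCm38.p6, Myrf or Sox cores in capitals).
Gsn longer form: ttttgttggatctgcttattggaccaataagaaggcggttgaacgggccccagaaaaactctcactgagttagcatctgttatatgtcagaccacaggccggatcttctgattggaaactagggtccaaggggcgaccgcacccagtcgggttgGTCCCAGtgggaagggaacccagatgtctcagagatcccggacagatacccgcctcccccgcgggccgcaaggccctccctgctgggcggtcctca
Gsn upstream start: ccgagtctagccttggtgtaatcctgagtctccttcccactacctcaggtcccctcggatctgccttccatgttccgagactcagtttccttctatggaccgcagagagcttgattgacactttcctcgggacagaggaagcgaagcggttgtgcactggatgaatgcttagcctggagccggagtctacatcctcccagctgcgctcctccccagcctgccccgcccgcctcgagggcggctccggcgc
The first holds 1 Myrf core and 0 Sox cores, and the second holds 0 of either.

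Mag has a large form (1 transcript of 627 codons) and a small form (2 transcripts of 582 codons) that differ at the cytoplasmic end. The large form held 43.5% ± 4.37, 28.0% ± 1.71, 39.7% ± 3.04 and 51.3% ± 0.822 of both forms at days 0, 1, 2 and 5 in brainstem K27M (SD over 3 cultures). In brainstem Control the shares on these days were 44.3% ± 1.42, 23.0% ± 1.61, 47.2% ± 4.86 and 53.3% ± 1.73. Telencephalon K27M gave, at days 1, 2 and 5, 20.1% ± 2.50, 35.5% ± 2.06 and 48.9% ± 3.97, and telencephalon Control 27.4% ± 7.12, 38.4% ± 1.97 and 52.9% ± 1.72. The share at day 5 exceeded that at day 1 in all 4 lines, and in both brainstem lines day 1 was the lowest of the 4 days. At day 0 the telencephalon cultures 38, 41 and 42 gave 19.8%, 6.13% and 29.0% in K27M and 8.81%, 0% and 47.3% in Control, where Control culture 42 was the one that averaged more than 1 TPM of Mag. Mbp has an upstream start (4 transcripts, the Golli products) and later starts (12 transcripts, the classic myelin products). The upstream start held 13.1%, 6.66%, 43.8% and 21.7% of Mbp TPM on average at day 0 in brainstem K27M, brainstem Control, telencephalon K27M and telencephalon Control. Cultures 38, 41 and 42 differed widely, at 3.72%, 5.05% and 30.7% in brainstem K27M, 10.9%, 5.96% and 3.11% in brainstem Control, 39.0%, 57.5% and 34.8% in telencephalon K27M and 23.4%, 40.1% and 1.63% in telencephalon Control. At day 5 it held 0.929%, 0.717%, 0.680% and 0.519%.

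**Figure D3:**
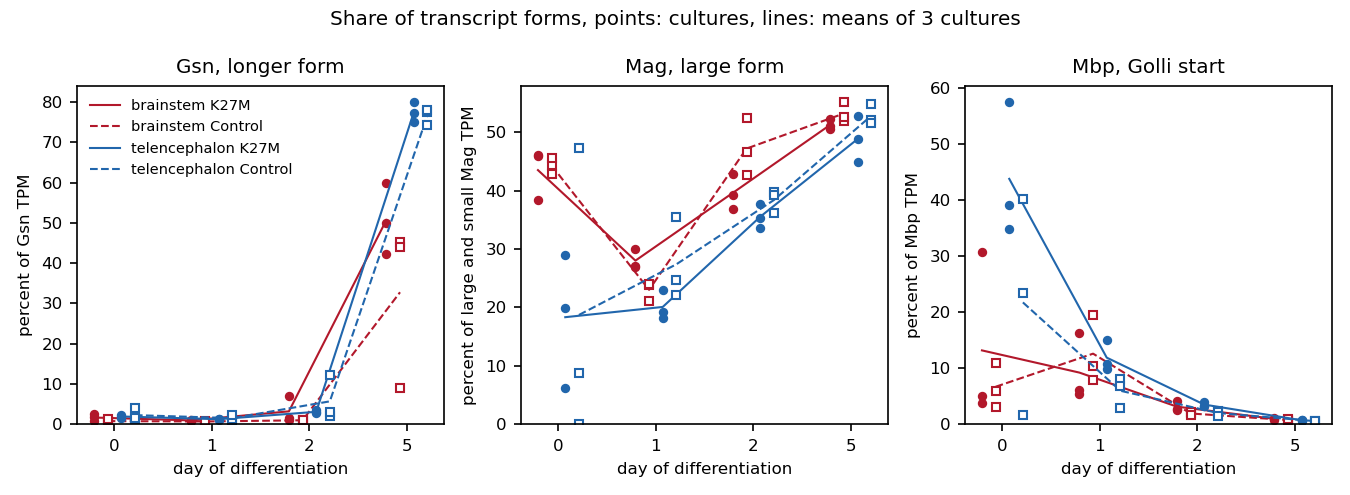
Percent of Gsn TPM in its longer form, of large and small Mag TPM in the large form, and of Mbp TPM from the Golli start, by day; points are the 3 cultures of a line and lines join their means. The longer Gsn form was above 70% in each telencephalon culture at day 5 and at 9.09% in brainstem Control culture 42.

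Did K27M change the genes in brainstem cells? The direction differed by day: at day 1 most differences were higher in K27M, and at day 5 most were lower. Over wells 6 genes were higher and 2 lower at day 0, where 7.69% and 3.64% of all genes were higher and lower. On day 1 the counts were 14 higher and 1 lower (all genes 16.9% and 12%). On day 2 they were 6 and 6 (all genes 13.6% and 12.5%), and on day 5 they were 3 and 15 (all genes 19.8% and 18.8%). On culture sums 0, 1, 3 and 8 genes passed in either direction at days 0, 1, 2 and 5, where 1.32%, 4.37%, 3.79% and 11.5% of all genes did. The counts of days 0 to 2 turned on single cultures. Without culture 42 they were 18 higher and 2 lower at day 0, 19 and 2 at day 1 and 15 and 3 at day 2, and without culture 41 they were 3 and 1, 5 and 1, and 2 and 10. The median log2 difference of the 34 genes was 0.31, 0.78, -0.09 and -0.53 on days 0, 1, 2 and 5.

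At day 5 the 4 genes with the largest differences were Ceacam20, Ppp1r14a, Opalin and Evi2a, all lower in K27M. On GRCm38, Ceacam20 lies on chromosome 7 (19965412 to 19991104, plus strand), Ppp1r14a on chromosome 7 (29289308 to 29293801, plus strand), Opalin on chromosome 19 (41061710 to 41077113, minus strand) and Evi2a on chromosome 11 (79526560 to 79530609, minus strand). Ceacam20 held 0.112, 0.203 and 0.370 TPM (lowest, median and highest library) in K27M, against 1.36, 2.03 and 5.22 TPM in Control. The groups did not overlap, and Ceacam20 was 14.9-fold lower (-3.89 ± 0.24, adjusted p = 9.8e-30, 9.9e-08 on culture sums). Ppp1r14a held 3.31, 3.90 and 6.25 TPM in K27M, against 7.00, 19.2 and 23.3 TPM in Control, again without overlap (-2.29 ± 0.19, adjusted p = 5.0e-20, 3.7e-05 on culture sums). Opalin held 9.25, 13.6 and 17.1 TPM in K27M and 36.3, 37.8 and 73.3 TPM in Control (-2.19 ± 0.27, adjusted p = 2.7e-11, 0.0075 on culture sums), with every K27M library below every Control library. Evi2a held 0.206, 0.883 and 0.909 TPM in K27M and 1.43, 1.70 and 2.20 TPM in Control (-1.91 ± 0.25, adjusted p = 3.3e-10, 0.0031 on culture sums), also apart. The labels put culture 38 in 1 batch and cultures 41 and 42 in another. Within cultures 38, 41 and 42 the differences of mean log2 CPM (counts scaled to library size) were -4.01, -4.31 and -3.10 for Ceacam20 and -2.84, -2.33 and -1.44 for Ppp1r14a. They were -2.33, -2.38 and -1.86 for Opalin and -2.91, -1.35 and -1.42 for Evi2a, so the direction held in both batches.

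A further 4 genes passed on both counts at day 5 in brainstem K27M. Qdpr held 57.1, 71.3 and 85.2 TPM in K27M and 112, 192 and 220.0 TPM in Control (-1.62 ± 0.13, adjusted p = 1.9e-21), with no overlap between the groups. Tspan2 (-1.20 ± 0.18), Gamt (-1.14 ± 0.20) and Pllp (-0.90 ± 0.15) were lower in all 3 cultures as well. Aspa (-1.46 ± 0.23), Cnp (-0.72 ± 0.19), Ninj2 (-0.93 ± 0.22) and Plekhh1 (-0.67 ± 0.20) were lower over wells and did not pass on culture sums (adjusted p = 0.056, 0.25, 0.13 and 0.20). Mbp differed by -0.42 ± 0.52, Mag by -0.58 ± 0.57, Mobp by -0.70 ± 0.69 and Mal by 0.09 ± 0.37, none of which passed (adjusted p = 0.56, 0.45, 0.45 and 0.88). Without culture 38 Aspa differed by -0.95, and Plekhh1 did not pass without culture 38 or 41 (adjusted p = 0.052 and 0.22). The 3 genes that were higher over wells were Klk6, Anln and Gsn. Klk6 held 20.8, 32.5 and 64.2 TPM in K27M and 9.09, 10.8 and 24.2 TPM in Control (1.05 ± 0.25, adjusted p = 3.3e-04, 0.13 on culture sums), and the groups overlapped. Anln differed by 0.70 ± 0.19, and Gsn by 0.34 ± 0.13. Without culture 41 Klk6 differed by 0.45, and Gsn differed by 0.76 without culture 38 and by -0.04 without culture 42.

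On the earlier days, few genes passed on culture sums in brainstem. At day 1 this was Trf, with 3.15, 8.39 and 15.9 TPM in K27M and 0.874, 1.28 and 4.29 TPM in Control (2.23 ± 0.29, adjusted p = 4.5e-10, 0.019 on culture sums) and groups that overlapped slightly. Mbp was 2.74 ± 0.59 at day 1 over wells (adjusted p = 1.3e-04) and higher in 2 of 3 cultures, with differences of 3.75, 3.47 and -0.71 in cultures 38, 41 and 42, and without culture 41 it did not pass (1.98, adjusted p = 0.075). The genes that were lower over wells were Gsn and Pllp at day 0 and Pllp at day 1. At day 2 Il33 was higher and Ceacam20 and Pllp were lower. Il33 held 0.0762, 0.202 and 0.661 TPM in K27M and 0.0127, 0.0471 and 0.177 TPM in Control (2.13 ± 0.32, adjusted p = 6.3e-08, 0.021 on culture sums). Pllp held 44.1, 60.2 and 79.0 TPM in K27M and 30.2, 126 and 177 TPM in Control (-1.02 ± 0.16, adjusted p = 1.3e-07), and Ceacam20 differed by -2.28 ± 0.45 (adjusted p = 3.2e-05). Ceacam20 was near the floor at that day, with no count in 1 K27M library and in 1 Control library. The Il33, Pllp and Ceacam20 groups each overlapped. Ermn at day 2 was 2.16 ± 0.60 over wells, -0.30 without culture 41 and 4.20 without culture 42.

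Markers of astrocytes, which can also express Cryab and Apod, differed between the genotypes in brainstem too, in the same direction on each day. In brainstem K27M 5, 4, 7 and 5 of the 11 astrocyte markers were higher than in Control at days 0, 1, 2 and 5 and 0 were lower, with 0, 0, 2 and 1 higher on culture sums. Their summed level at day 2 was 68.8 to 144 TPM (median 82.4) in K27M and 22.5 to 93.0 TPM (median 47.2) in Control, and at day 5 it was 256 to 710.4 TPM (median 402) in K27M and 71.2 to 422 TPM (median 88.1) in Control. OPC markers also moved: 6 of 10 were higher in K27M at day 5 (5 on culture sums) and 0 lower, with summed levels of 92.9 to 158 TPM (median 139) in K27M and 48.8 to 105 TPM (median 72.7) in Control. Their part in the results on the myelin genes was not tested.

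**Figure D4:**
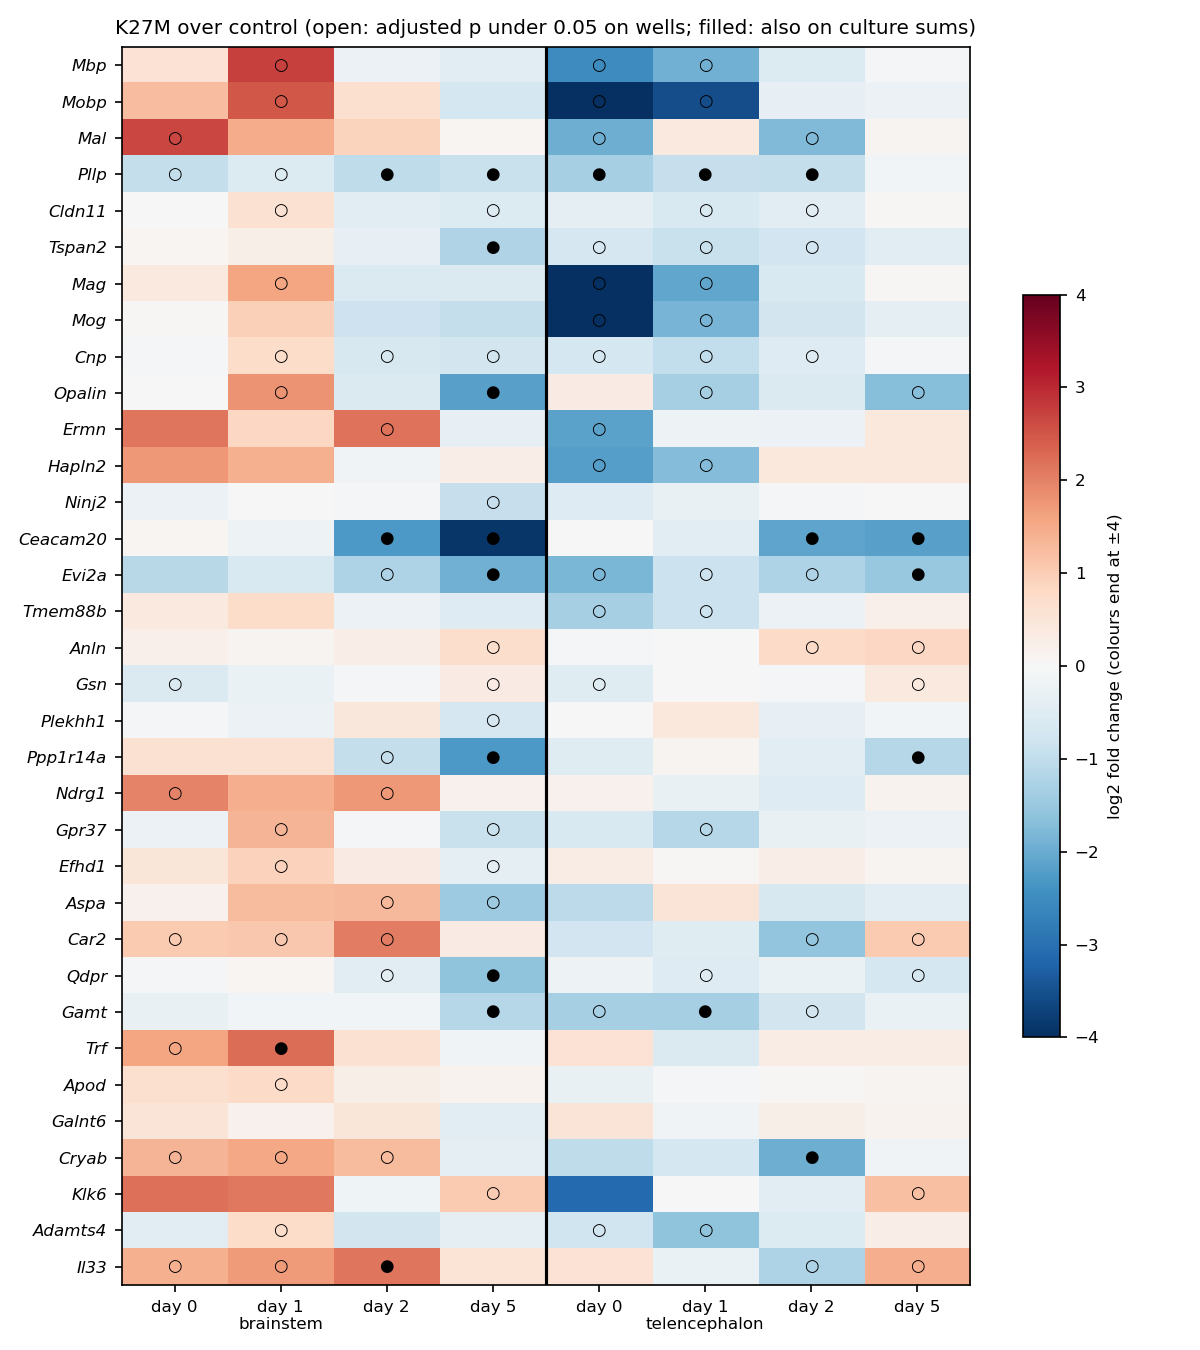
Log2 fold change of each of the 34 genes in K27M against Control (edgeR) in brainstem and telencephalon at days 0, 1, 2 and 5, as colours that end at a log2 of 4, in order of role. An open circle marks an adjusted p under 0.05 on wells and a filled circle one that also passed on culture sums; Ceacam20, Ppp1r14a, Opalin and Evi2a have the deepest blue at day 5 in brainstem.

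In telencephalon cells the differences pointed down in K27M on days 0 to 2. Over wells 0 genes were higher and 15 lower at day 0, where 5.97% and 9.75% of all genes were higher and lower. The counts were 0 and 16 at day 1 (all genes 12.9% and 15.9%), 1 and 11 at day 2 (all genes 17% and 15.4%) and 5 and 5 at day 5 (all genes 10.6% and 11.7%). On culture sums 1, 2, 3 and 3 genes passed at days 0, 1, 2 and 5, where 0.335%, 4.41%, 4.6% and 1.99% of all genes did. The median log2 difference of the 34 genes was -0.69, -0.54, -0.48 and 0.01. Much of the day 0 result lay in 1 Control culture. Without culture 42 the counts were 1 higher and 7 lower at day 0 and 1 higher and 9 lower at day 1. Mobp differed by -5.24 ± 1.01 and Mbp by -2.51 ± 0.59 over wells, but without culture 42 they differed by 0.12 and 0.64. At day 1 Hapln2 (-1.73 ± 0.49) and Gpr37 (-1.14 ± 0.35) turned to 0.15 and 0.29 without that culture. The gene that was higher at day 2 was Anln (0.78 ± 0.19).

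Pllp was the gene that passed on both counts at days 0, 1 and 2. At day 0 Pllp held 4.05, 5.48 and 10.1 TPM in K27M and 7.66, 13.8 and 16.4 TPM in Control (-1.32 ± 0.16, adjusted p = 6.3e-11, 0.015 on culture sums), and the groups overlapped in part. Its difference was -0.93 ± 0.15 at day 1 (adjusted p = 4.7e-07) and -0.94 ± 0.15 at day 2 (adjusted p = 3.5e-07). Within cultures 38, 41 and 42 Pllp differed by -1.77, -1.06 and -1.24 at day 0, so it was lower in both batches. At day 1 Gamt was lower too, with 1.83, 2.40 and 2.97 TPM in K27M and 3.12, 4.43 and 9.10 TPM in Control (-1.33 ± 0.22, adjusted p = 4.2e-07, 0.029 on culture sums) and all K27M libraries below all Control libraries, and its difference was -0.84 without culture 42. At day 2 Ceacam20 (-2.11 ± 0.55, adjusted p = 0.0014) and Cryab (-1.97 ± 0.36, adjusted p = 4.7e-06) were lower. Ceacam20 was near the floor at that day, with no count in 4 K27M libraries and in 1 Control library.

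At day 5 the genes that passed on both counts in telencephalon were Ceacam20, Evi2a and Ppp1r14a, which were also among the lowest in brainstem K27M. Ceacam20 held 0.420, 0.486 and 0.755 TPM in K27M, against 1.05, 2.24 and 3.60 TPM in Control (-2.17 ± 0.22, adjusted p = 1.2e-14, 4.7e-04 on culture sums). Evi2a held 1.40, 1.78 and 2.08 TPM in K27M, against 2.45, 5.15 and 5.75 TPM in Control (-1.51 ± 0.24, adjusted p = 5.0e-07, 0.036 on culture sums). Neither gene's groups overlapped. Ppp1r14a held 6.08, 8.66 and 11.1 TPM in K27M and 9.77, 18.4 and 24.7 TPM in Control (-1.15 ± 0.18, adjusted p = 2.3e-07, 0.041 on culture sums), with an overlap at the edge. Opalin (-1.72 ± 0.27, adjusted p = 1.6e-07) and Qdpr (-0.70 ± 0.12, adjusted p = 3.7e-06) passed over wells and missed on culture sums (adjusted p = 0.067 and 0.057). Within cultures 38, 41 and 42 the differences were -2.31, -2.28 and -1.66 for Ceacam20, -1.88, -1.46 and -0.92 for Evi2a and -1.09, -1.26 and -0.96 for Ppp1r14a. Klk6 (1.19 ± 0.24), Il33 (1.46 ± 0.25), Car2 (1.04 ± 0.32), Anln (0.83 ± 0.19) and Gsn (0.39 ± 0.13) were higher over wells only. Without culture 38 Car2 (1.02, adjusted p = 0.067) and Anln (0.53, adjusted p = 0.18) did not pass, nor did Gsn without culture 41 (0.42, adjusted p = 0.11).

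Astrocyte markers moved the other way in telencephalon: 3, 2, 10 and 3 of 11 were lower in K27M at days 0, 1, 2 and 5 (0, 0, 1 and 0 on culture sums), and 0 were higher. At day 2 they summed to 34.0 to 344 TPM (median 53.4) in K27M and 93.0 to 566 TPM (median 288) in Control, and at day 5 to 123 to 1099 TPM (median 545) in K27M and 456 to 2796 TPM (median 1244) in Control. Of 14 cycling markers, 13 at day 2 and 11 at day 5 were higher in telencephalon K27M (0 and 0 on culture sums), with summed levels at day 5 of 48.6 to 64.5 TPM (median 55.1) in K27M and 19.0 to 47.4 TPM (median 25.3) in Control. All 8 neuron markers were higher in telencephalon K27M at day 1 over wells and 1 on culture sums. They summed to 117 to 164 TPM (median 136) in K27M and 79.5 to 119 TPM (median 94.6) in Control, while 3 of the 8 in K27M and 2 in Control reached 1 TPM, and the neuronal transporter Slc17a7 averaged at most 0.0614 TPM in any group. At day 2, 6 of 10 OPC markers were higher in K27M and 1 lower (1 and 0 on culture sums). The part of these lists in the differences of the myelin genes was not tested.

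Did the effect of K27M differ between the regions? The test of the difference itself (brainstem effect minus telencephalon effect) passed for 12 genes at day 0, 20 at day 1, 6 at day 2 and 10 at day 5 over wells, where 7.25%, 35.8%, 14.1% and 29.7% of all genes passed in either direction. The counts of days 2 and 5 were close to the share of all genes, so they do not set the myelin genes apart. Among the genes that passed, the differences of days 0, 1 and 2 were all positive and those of day 5 all negative. No share of all genes by direction stands beside these signs. On culture sums 0, 4, 2 and 1 genes passed, also without a share of all genes beside them. The counts over wells were 7 at day 0 without culture 38, 12 at day 1 without culture 41, 3 and 13 at day 2 without cultures 41 and 42, and 5 at day 5 without culture 38. The genes that passed on both counts at day 1 were Mbp, Opalin, Trf and Cnp. Mbp differed by 2.74 ± 0.59 in brainstem and -1.91 ± 0.56 in telencephalon, a gap of 4.65 ± 0.81 (adjusted p = 1.6e-06, 0.036 on culture sums). Opalin differed by 1.80 ± 0.29 in brainstem and -1.34 ± 0.28 in telencephalon, a gap of 3.14 ± 0.40 (adjusted p = 4.9e-10, 0.012 on culture sums). For Trf the gap was 2.81 ± 0.39 and for Cnp 1.71 ± 0.28. Cultures of the regions share a number and not a batch. Number by number (38, 41 and 42) the gaps were 3.68, 4.47 and 3.18 for Mbp and 3.52, 3.85 and 0.19 for Opalin, so that of Opalin was close to 0 in culture 42. The Mbp gap was not made up alike in each culture. In culture 38 almost all of it lay in brainstem. In culture 42 Mbp was lower in K27M in both regions, and more so in telencephalon.

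At day 2 the gap was 3.64 ± 0.52 for Car2 (adjusted p = 2.7e-08, 0.035 on culture sums), which differed by 2.05 in brainstem and -1.58 in telencephalon. It was 3.36 ± 0.56 for Il33 (adjusted p = 1.4e-06, 0.044 on culture sums), which differed by 2.13 in brainstem and -1.23 in telencephalon. The astrocyte markers moved the same way at that day, with 7 of 11 higher in brainstem K27M and 10 of 11 lower in telencephalon K27M (2 and 1 on culture sums), and their part was not tested. At day 5 the K27M effect on Ceacam20 was more negative in brainstem, by -1.73 ± 0.30 (adjusted p = 2.4e-06, 0.048 on culture sums). Over wells alone Ppp1r14a (-1.14 ± 0.26), Aspa (-1.01 ± 0.32), Qdpr (-0.91 ± 0.18) and 6 more genes (Cnp, Gamt, Il33, Ninj2, Pllp and Tspan2) showed a gap of that sign. Without culture 38 the gap was -0.75 for Ppp1r14a and -0.40 for Aspa, which did not pass (adjusted p = 0.43), and without culture 41 it was -1.57 for Aspa. The gap of Opalin at day 5 was -0.47 ± 0.37 and did not pass (adjusted p = 0.35).

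How did brainstem cells compare with telencephalon cells? In Control cells most differences at day 1 were lower in brainstem, and few genes differed at day 5. Over wells 3 genes were higher and 6 lower at day 0, where 15.8% and 20.4% of all genes were higher and lower. On day 1 it was 4 higher and 19 lower (all genes 25.1% and 29%), on day 2 5 and 7 (all genes 18.8% and 19.4%) and on day 5 4 and 2 (all genes 21.6% and 21.5%). On culture sums 2, 13, 2 and 2 genes passed, where 10.9%, 27.9%, 10.3% and 14.7% of all genes did. Without culture 42 the day 2 counts were 7 and 14. The genes higher in brainstem Control were Gsn, Il33 and Pllp at day 0, these and Galnt6 at day 1, Anln, Opalin, Pllp, Ppp1r14a and Qdpr at day 2, and Efhd1, Il33, Pllp and Qdpr at day 5, where Gsn and Evi2a were the lower ones. The median log2 difference of the 34 genes was -0.25, -1.08, -0.42 and -0.04.

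At day 1 in Control the largest differences on both counts were those of Mbp, Hapln2, Evi2a and Cnp. Mbp held 7.63, 38.2 and 56.4 TPM in brainstem, against 65.7, 114 and 1097 TPM in telencephalon, without overlap (-3.50 ± 0.61, adjusted p = 4.7e-07, 0.013 on culture sums). Cnp held 88.5, 184 and 324 TPM in brainstem and 265, 477 and 775 TPM in telencephalon (-1.70 ± 0.21, adjusted p = 7.3e-12, 0.0019 on culture sums), with a partial overlap. Hapln2 (-2.98 ± 0.58) and Evi2a (-2.56 ± 0.38) were lower in brainstem in all 3 cultures too. Telencephalon culture 42 set the size of several of these: without culture 42 Mbp differed by -2.25, Hapln2 by -1.21 and Mobp, at -3.50 ± 0.96 over wells, by 0.02. Evi2a was lower in brainstem Control on every day, with -2.52 ± 0.37 at day 0 and -1.27 ± 0.24 at day 5. Pllp was higher in brainstem Control at day 0, with 19.4, 36.4 and 42.5 TPM in brainstem and 7.66, 13.8 and 16.4 TPM in telencephalon and no overlap (1.42 ± 0.15, adjusted p = 1.5e-13, 4.3e-04 on culture sums). Il33 at day 1 (1.57 ± 0.39, adjusted p = 4.0e-04) was higher in 2 of 3 cultures, at 1.05 without culture 38 (adjusted p = 0.071) and 2.52 without culture 41. At day 2 Car2 averaged 0.291, 0.499 and 0.591 TPM in brainstem cultures 38, 41 and 42, against 1.75, 0.654 and 5.53 TPM in telencephalon (-2.31 ± 0.37, adjusted p = 1.3e-07, 0.012 on culture sums), and the groups overlapped slightly.

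In K27M cells most differences were higher in brainstem at days 0 and 1 and lower at day 5. Over wells 17 genes were higher and 1 lower in brainstem at day 0 (all genes 10.8% and 11.2%). There were 12 and 1 at day 1 (all genes 15.6% and 13.5%), 5 and 1 at day 2 (all genes 8.59% and 11.5%) and 0 and 15 at day 5 (all genes 15.5% and 17%). On culture sums 4, 5, 2 and 4 genes passed, where 3.84%, 5.58%, 3.27% and 8.84% of all genes did. At day 1 the counts were 7 and 1 without culture 41. At day 2 the counts were 4 and 10 without culture 41 and 12 and 0 without culture 42, and at day 5 they were 0 and 7 without culture 38 and 0 and 23 without culture 42. The gene that was lower at days 0, 1 and 2 was Evi2a (-1.80, -2.31 and -1.43), and the 5 higher ones at day 2 were Car2, Cryab, Il33, Opalin and Pllp. At day 0 Mog held 0.0575, 0.274 and 2.75 TPM in brainstem and 0, 0.0336 and 0.0982 TPM in telencephalon (4.47 ± 0.78, adjusted p = 2.0e-06, 0.023 on culture sums), and Mag differed by 4.43 ± 0.69 (adjusted p = 1.1e-07). Pllp held 11.7, 15.6 and 21.7 TPM in brainstem and 4.05, 5.48 and 10.1 TPM in telencephalon at day 0, without overlap (1.78 ± 0.16, adjusted p = 2.0e-18, 2.9e-05 on culture sums). Il33 was higher in brainstem K27M by 2.00 ± 0.27, 3.55 ± 0.36 and 3.62 ± 0.39 at days 0, 1 and 2, and Cryab by 2.09 ± 0.37 and 2.55 ± 0.37 at days 1 and 2.

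Gsn separated the regions at day 5 in both genotypes. It held 115, 184 and 199.6 TPM in brainstem K27M, against 272, 363 and 511 TPM in telencephalon K27M (-1.41 ± 0.13, adjusted p = 5.4e-17, 1.7e-04 on culture sums). In Control it held 55.5, 116 and 139.7 TPM in brainstem, against 157, 271 and 331 TPM in telencephalon (-1.36 ± 0.13, adjusted p = 3.6e-16, 1.1e-04 on culture sums). The regions did not overlap in either genotype. The other genes that passed on both counts at day 5 in K27M were Evi2a (-1.67 ± 0.25), Ceacam20 (-1.53 ± 0.22) and Ppp1r14a (-1.13 ± 0.18), all lower in brainstem. In K27M at day 5, 1 of 11 astrocyte markers was higher and 0 lower in brainstem, and in Control 0 were higher and 10 lower (on culture sums 0 in K27M and 5 in Control). They summed to 256 to 710.4 TPM (median 402) in brainstem K27M and 123 to 1099 TPM (median 545) in telencephalon K27M, and to 71.2 to 422 TPM (median 88.1) in brainstem Control and 456 to 2796 TPM (median 1244) in telencephalon Control. Of 10 vascular and fibroblast markers, 7 were lower in brainstem K27M and 6 in brainstem Control (5 and 3 on culture sums), with summed levels of 0.475 to 1.26 TPM (median 1.11) in brainstem K27M, 0.494 to 3.68 TPM (median 1.51) in telencephalon K27M, 0.107 to 1.01 TPM (median 0.266) in brainstem Control and 0.242 to 2.31 TPM (median 0.541) in telencephalon Control. The part of either list in the Gsn difference was not tested.

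**Figure D5:**
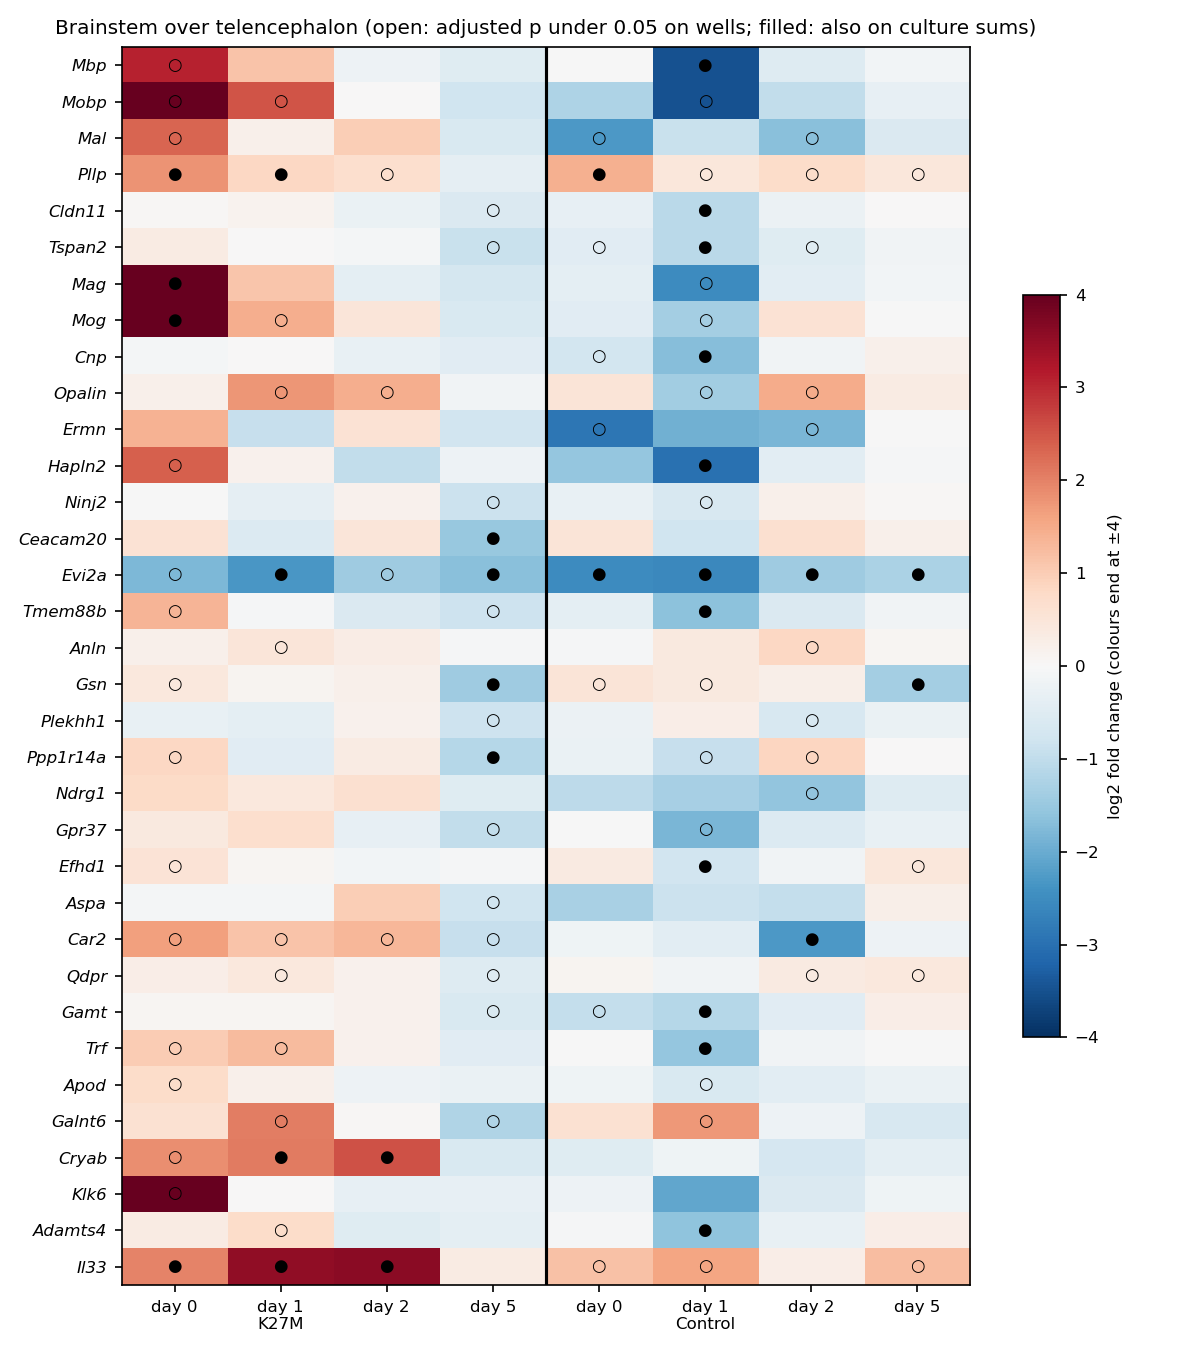
Log2 fold change of each of the 34 genes in brainstem against telencephalon (edgeR) in K27M and Control cells at days 0, 1, 2 and 5, with colours and circles as in the plot of K27M over Control. In Control cells at day 1 most genes lie below 0 (blue), down to -3.50 for Mbp, and at day 5 Gsn is among the lowest in both genotypes.

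The change since day 0 was also compared between regions. In K27M 4, 8 and 20 genes passed at days 1, 2 and 5 over wells, where 2.7%, 2.4% and 15.8% of all genes did, and on culture sums 0, 0 and 2 passed. All 20 of day 5 had a smaller rise in brainstem. Without culture 38 the K27M counts were 0, 0 and 10. At day 1 it was 2 without culture 41 and 10 without culture 42. The 4 genes of day 1 were Il33, Opalin, Mag and Pllp. In Control 9, 3 and 7 genes passed, where 16.8%, 17.3% and 23.8% of all genes did, and on culture sums 0, 0 and 1 passed. Without culture 42 the day 2 count in Control was 11. The 3 genes of day 2 were Anln, Car2 and Pllp, and the 7 of day 5 were Cnp, Ermn, Evi2a and Gamt, whose rise was larger in brainstem, and Galnt6, Gsn and Pllp, whose rise was smaller. The gap in the day 5 rise of K27M cells was -2.13 ± 0.22 for Pllp (adjusted p = 9.4e-14, 0.0046 on culture sums), which started higher in brainstem, and -1.83 ± 0.19 for Gsn (adjusted p = 8.0e-14, 0.0048 on culture sums). In Control it was -1.87 ± 0.19 for Gsn (adjusted p = 3.3e-14, 0.0033 on culture sums). Among the 34 genes, Gsn was the one whose rise was smaller in brainstem in both genotypes by both counts.

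Other genes of the pathway were counted too. Their counts between days carry no fold threshold, and no share of all genes stands beside them, so they give direction only. At day 5 against day 0, 16, 15, 14 and 15 of 17 other myelin and junction genes were higher and 0, 1, 0 and 0 lower in brainstem K27M, brainstem Control, telencephalon K27M and telencephalon Control (13, 14, 14 and 14 higher and 0 lower on culture sums). In telencephalon at day 1, 12 of the 17 were lower in K27M than in Control and 1 was higher (1 and 0 on culture sums). Of all genes, 15.9% were lower and 12.9% higher in that comparison. Of 8 genes of galactolipid and long-chain lipid synthesis, 7, 8, 8 and 7 were higher at day 5 and 0 lower (7, 6, 7 and 7 on culture sums). In telencephalon at day 1 all 8 of them were lower in K27M than in Control over wells and 3 on culture sums. Of 12 regulators of the lineage, 8, 9, 10 and 7 were higher and 2, 1, 2 and 2 lower at day 5 (6, 9, 9 and 7 higher on culture sums). At that day 0 of the regulators were higher and 6 lower in brainstem K27M than in Control, and none of the 6 held on culture sums. There 19.8% of all genes were higher and 18.8% lower. Of 14 genes of committed and newly formed cells, 9 were higher and 0 lower in brainstem K27M than in Control at day 1, and 0 were higher and 9 lower in telencephalon K27M, of which 0 and 2 held on culture sums. In brainstem at day 1, 16.9% of all genes were higher in K27M and 12% lower. The 10 OPC markers fell in 6, 8, 8 and 8 cases at day 5, and all 14 cycling markers fell in each line, with the same counts on culture sums. The 11 astrocyte markers rose in 8, 9, 11 and 10 cases (8, 7, 9 and 10 on culture sums).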

How the data were processed

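Total RNA of 142 wells was sequenced as stranded paired-end libraries, and the authors quantified transcripts with Salmon 1.10.1 on mm10. The deposited tables give, per transcript and library, an expected count (the estimated number of read pairs), a TPM normalized by the authors for length and library total, and an effective length in bases, which enters 1 alternative. Transcripts were assigned to genes by GENCODE M21 (GRCm38), whereas the study used M25: 139821 of 141084 transcripts matched, and 0.252% to 0.377% of read pairs per library stayed unmatched. Counts were summed per gene and rounded. The precision of a low gene is set by depth, 26.6 to 455 M read pairs.

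Fold changes and p-values came from edgeR 4.0.16 (quasi-likelihood test, TMM scaling, R 4.3.3) over all 142 libraries, with 16 groups and culture within region as a block, on the 19769 genes that passed filterByExpr. Standard errors are the log2 fold change over the square root of F. Benjamini-Hochberg adjustment ran over all genes tested within each of 38 comparisons (12 of days, 8 of K27M, 8 of regions, 4 of the K27M effect between regions, 6 of the change since day 0), and a call is an adjusted p under 0.05. Culture sums pool the wells of a culture and day, with n of 3 cultures per group. Differences within a culture are of mean log2 CPM with a prior count of 2. Tables and figures were made with Python 3.11.15, numpy 2.4.6, pandas 2.3.3 and matplotlib 3.10.9, and the script of the fit was tested on simulated data.

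The genes named in a comparison were up to 4 in each direction (3 for differences between effects) with the largest log2 change among those called over wells and on culture sums with the same sign in all 3 cultures, and genes whose onset day differed between lines. Any other gene named beside a comparison was picked with its values in view. The 34 genes and the marker lists were chosen with earlier results of these data known. Alternatives were RLE scaling, DESeq2 1.42.0 with a fold threshold of 1.1, no filter on low counts, effective length as an offset, passage as a covariate, no culture block, well number as a block, each culture left out, other onset thresholds, and, added after the data were seen, the deepest library left out. Culture numbers were taken as pairs from the study's model. K27M and Control cultures of the same number, region and day deviated from their group means with a median correlation across genes of 0.25 (above 0.1 in 22 of 24 pairs). The median for different numbers was -0.14. The deviations of the 3 cultures cancel within a group, so these medians are tied and the second is no independent reference. Cultures of the same number and region also shared a batch, so the correlation cannot decide whether they were pairs.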

Additional observations from a re-analysis of the deposited data

Results flagged for a closer look

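The number of read pairs stood apart in 4 groups. The deepest library held 82.4 M read pairs in brainstem K27M at day 2 (next 55.4 M), 455 M in brainstem Control at day 5 (next 56.4 M), 72.0 M in telencephalon K27M at day 0 (next 51.1 M) and 84.7 M in telencephalon K27M at day 1 (next 52.2 M). Of 32 groups tested, 16 for depth and 16 for the summed TPM of the myelin genes, chance alone would pick about 1 in 20 if libraries were independent. No single library stood apart in the summed TPM. The rule compares a library with its nearest, so a culture whose wells all stand apart is not picked. At day 1 telencephalon Control culture 42 held 2437 to 2822 TPM, against 563 to 1288 TPM in cultures 38 and 41, and was not picked.

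The effect of K27M differed between the regions for 6 genes picked by size, by the test of the difference itself over wells and on culture sums. At day 1 the brainstem effect exceeded the telencephalon effect by 4.65 (log2) for Mbp, 3.14 for Opalin and 2.81 for Trf. At day 2 it did so by 3.64 for Car2 and 3.36 for Il33. At day 5 the difference was -1.73 for Ceacam20, whose K27M level was lower in both regions. The change since day 0 at day 5 also differed between the regions, by -2.13 for Pllp and -1.83 for Gsn in K27M and by -1.87 for Gsn in Control. Region and batch cannot be told apart in any of these.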

How the results depend on the processing

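The replicate unit changed most. With wells summed per culture, K27M against Control gave 0, 1, 3 and 8 genes in brainstem (8, 15, 12 and 18 over wells) and 1, 2, 3 and 3 in telencephalon (15, 16, 12 and 10). Brainstem against telencephalon gave 4, 5, 2 and 4 in K27M (18, 13, 6 and 15) and 2, 13, 2 and 2 in Control (9, 23, 12 and 6). The difference of K27M effects gave 0, 4, 2 and 1 (12, 20, 6 and 10), and that of the change since day 0 gave 0, 0 and 2 in K27M (4, 8 and 20) and 0, 0 and 1 in Control (9, 3 and 7). Of the calls over wells, 289 of 333 between days, 21 of 106 between genotypes, 34 of 102 between regions, 7 of 48 for the K27M effect and 3 of 51 for the change held on culture sums.

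DESeq2 with its fold threshold gave 9 genes for K27M against Control in telencephalon at day 0, 9 for the regions in K27M at day 5, 7 and 3 for the regions in Control at days 2 and 5, 4 for the difference of K27M effects at day 5, and 1 and 4 for the change in Control at days 2 and 5. With passage as a covariate the regions in Control at day 5 gave 3. Without the culture block the change in K27M at day 1 gave 2, and adding well number as a replicate block moved no count by over 1.5 times (same-numbered wells of K27M and Control had a median correlation of 0.01). With a 4-fold onset threshold 7, 3, 9 and 10 genes rose at day 1 in brainstem K27M, brainstem Control, telencephalon K27M and telencephalon Control. RLE scaling, no filter, the length offset and leaving out the deepest library moved no count of calls by over 1.5 times. The causes were not tested.

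With each culture left out in turn, the genes that rose at least 2-fold ranged over 8 to 14, 17 to 23 and 33 at days 1, 2 and 5 in brainstem K27M, 6 to 9, 25 to 26 and 33 in brainstem Control, 13 to 16, 21 to 24 and 33 in telencephalon K27M, and 14 to 17, 24 to 25 and 33 in telencephalon Control. K27M against Control ranged over 4 to 20, 6 to 21, 12 to 18 and 12 to 19 in brainstem at days 0, 1, 2 and 5, and 8 to 15, 10 to 16, 9 to 13 and 8 to 12 in telencephalon. The regions ranged over 12 to 24, 8 to 18, 5 to 14 and 7 to 23 in K27M and 8 to 12, 19 to 24, 9 to 21 and 5 to 9 in Control. The difference of K27M effects ranged over 7 to 15, 12 to 22, 3 to 13 and 5 to 14, and that of the change over 0 to 10, 0 to 12 and 10 to 29 in K27M and 6 to 12, 2 to 11 and 5 to 10 in Control.

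Of the single calls, 14 turned their sign without 1 culture, and their values over the 3 cultures left out in turn ranged as follows. Against day 0, Mal was -1.81 to 0.46 at day 1 in brainstem K27M and -1.88 to 0.00055 in telencephalon Control, and Evi2a -0.094 to 1.99 at day 2 in brainstem K27M. For K27M in brainstem, Ermn was -0.30 to 4.20 at day 2 and Gsn -0.041 to 0.76 at day 5. For K27M in telencephalon, Mbp was -3.38 to 0.64, Mobp -6.53 to 0.12 and Ermn -2.92 to 0.12 at day 0, and Hapln2 -3.23 to 0.15 and Gpr37 -2.08 to 0.29 at day 1. For the regions, Adamts4 was -0.014 to 1.15 at day 1 and Car2 -0.38 to 1.89 at day 2 in K27M, and Mobp -5.08 to 0.019 at day 1 in Control. For the difference of K27M effects at day 1, Apod was -0.11 to 1.52. With 3 cultures per group, small differences were not detectable on culture sums.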
